A study of Homo sapiens with 4 samples.

Results

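The 10 mitotic kinesins are KIF11, KIF14, KIF15, KIF18A, KIF20A, KIF22, KIF23, KIF2C, KIF4A and KIFC1. They were chosen by name from the gene tables of a transcriptome study of Huh7, a human hepatoma cell line. Earlier results of these data were known when they were chosen. All 10 were found among the 14055 genes listed in all 4 tables, and all 10 passed the filter of at least 1 RPKM in at least 2 libraries (11085 genes passed). RPKM, the deposited unit, divides reads by the length of the transcript and by library depth. The 2 ISL1 libraries came from Huh7 cells at passage 3 given lentivirus carrying ISL1, a LIM-homeodomain factor that regulates transcription, and the 2 control libraries from the same cells given blank lentivirus. The labels set ISL1 expression against blank virus, in duplicate. One title in the ISL1 group names ISL2, although no ISL2 virus is described. The labels do not say that the duplicates are separate cultures, so a p-value here covers the spread of 4 libraries alone, which may be technical.

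Kinesins are motors that walk along microtubules or take them apart, using ATP. The mitotic kinesins build a spindle with a pole at each end, move and align the chromosomes, and later organise the central spindle and the midbody through which daughter cells separate. Their transcripts are known to be periodic, low early in interphase and high in G2 and mitosis, so in a bulk sample their level follows both the share of dividing cells and the RNA per cell; these cannot be told apart here.

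The library facts that bear on these genes come first. ISL1 stood at 8.22 and 1801 RPKM in the first and second ISL1 libraries, against 0.0454 RPKM in the first control and a listed 0 in the second. ISL2 stood at 2.08 and 13.2 RPKM in the ISL1 libraries and at 4.57 and 3.23 RPKM in the controls. Depths recovered from the steps of low values ran from 29429964 to 37134267 reads. The replicate 1 tables and the replicate 2 tables listed different gene sets. Differences are therefore given within each replicate number, as ISL1 minus control or ISL1 over control. Hepatoma markers such as AFP and ALB were present in every library. At least 9 of the 10 hepatoma markers reached 1 RPKM in each library; the exception in replicate 1 was HNF4A, at 0.0335 RPKM with ISL1 and listed at 0.0001 in the control. Their summed level was 22739 and 11835 RPKM in the ISL1 libraries, against 21745 and 24460 RPKM in the controls. Of 8 blood cell markers, 3 were listed in the replicate 1 tables and all 8 in the replicate 2 tables, with sums of 1.87 and 55.4 RPKM in the ISL1 libraries, against 2.65 and 1074 RPKM in the controls; HBB, a globin, was listed at 0 in the second ISL1 library and at 398.0 RPKM in the second control. HBA1 and HBA2 stood at 0.708 and 0.656 RPKM in the second ISL1 library, against 354.0 and 247.6 RPKM in the second control. PTPRC, which marks all white blood cells, was near 0 in replicate 2, at 0.0280 RPKM with ISL1 and 0.0843 RPKM in the control. CD68, of the same list, was not, at 53.9 RPKM with ISL1 and 73.5 RPKM in the control of replicate 2. Of 8 heart and muscle markers, 5 and 8 were listed, with sums of 5.70 and 58.3 RPKM in the ISL1 libraries, against 13.2 and 11.7 RPKM in the controls; all 8 reached 1 RPKM with ISL1 in replicate 2, against 1 in its control, where MYH6 and MYH7 were listed at 0. Of 9 endothelial and stromal markers, 6 and 9 were listed, with sums of 5.63 and 14.1 RPKM in the ISL1 libraries, against 10.9 and 17.6 RPKM in the controls. The part of these marker differences in the kinesin values was not tested.

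Most mitotic kinesins stood higher with ISL1: 9 of 10 did so within both replicate numbers, where 23.1% of all tested genes did, and none stood lower in both (19.1%). Because the 10 genes were chosen with earlier results of these data known, the shares given here only describe them. The set was not tested against other genes. All 10 stood higher in replicate 1 (49.4% of tested genes) and 9 in replicate 2 (54.6%). The exception was KIF22, which stood lower with ISL1 in replicate 2. The median difference of the 10 genes on the log2(RPKM + 1) scale was 0.93 in replicate 1 and 0.43 in replicate 2, against medians of -0.00211 and 0.0578 over all tested genes. In replicate 1, 9 of the 10 were at least 1.5-fold higher on that scale (5.99% of tested genes) and 0 at least 1.5-fold lower (7.03%). In replicate 2, 4 of the 10 were at least 1.5-fold higher (17.8%) and 1, KIF22, at least 1.5-fold lower (12.3%). On that scale 3 genes, KIF18A, KIF20A and KIF2C, passed 1.5-fold in both replicate numbers (0.713% of tested genes); by the plain ratio of RPKM, chosen as an alternative after seeing the data, KIF23 passed as well and made 4 (2.44%). With median-ratio scaling KIF18A and KIF20A alone passed 1.5-fold higher in replicate 2 (10.6% of tested genes) and in both (0.830%), while all 10 passed in replicate 1 (12.03%). For 7 of the 10, both ISL1 libraries lay above both controls (5.52%), and for 0 below both (5.08%). With median-ratio scaling, 6894 of 11085 genes were higher in replicate 1 and 4510 in replicate 2, against 5473 and 6055 on the deposited scale, and the kinesin medians were 1.15 and 0.23. None passed the pooled limma test on log2(RPKM + 1), 2 libraries against 2, and neither did any other gene (adjusted p = 1.00 for each kinesin; 0 of 11085 genes, 0%). At an unadjusted p under 0.05 this fit gave 15 genes (0.135%) and no kinesin. It has no term for the replicate number, so its SE values include the difference between the replicate 1 and replicate 2 tables. The median kinesin level per library was 4.41 and 4.99 on the log2 scale with ISL1, against 3.43 and 4.32 in the controls (exact permutation test, two-sided, p = 0.33, the smallest that 2 against 2 can give).

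**Figure D1:**
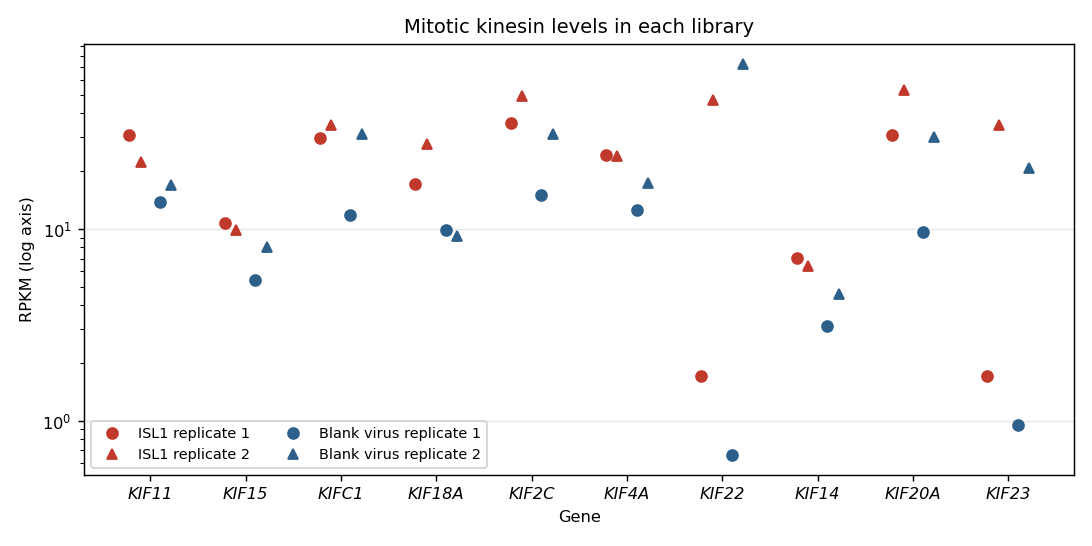
RPKM of the 10 mitotic kinesins in each of the 4 libraries on a log axis, with ISL1 libraries in red left of the blank virus controls in blue, circles for replicate 1 and triangles for replicate 2. KIF22 and KIF23 lay far lower in both replicate 1 tables (0.661 to 1.71 RPKM) than in both replicate 2 tables (20.8 to 72.7 RPKM), while the other 8 genes differed less between the tables.

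The promoters of these genes were read because genes of G2 and mitosis are known to be repressed and activated through the CHR, a short element bound by MuvB complexes, and often through CCAAT boxes bound by NF-Y. The windows, from RefSeq on GRCh38.p14, run from 250 bases before the start site to 50 bases after it, and all 10 kinesins matched by symbol. The letters searched were TTTGAA and TTCGAA for the CHR and CCAAT for the other box, on both strands; none of these matches overlapped. A CHR match lay in 8 of 10 kinesin windows, against 16.6% of 27305 windows of the same length and 11.02% of the 8436 windows of tested genes. CCAAT lay in 8 of 10, against 35.7% and 37.1%. Both lay in 7 of 10, against 6.58% and 4.72%, and in all 7 the CCAAT letters stood upstream of the CHR letters. A match is a description of letters, not of a bound site. The windows of 5 genes are shown, with the matched letters in capitals. KIF11 (chr10:92592880-92593179, plus strand), KIF4A (chrX:70289854-70290153, plus strand) and KIF14 (chr1:200620702-200621001, minus strand) carry the 2 elements at 25, 24 and 23 bases from first letter to first letter. KIF22 (chr16:29790501-29790800, plus strand) is shown as the gene that went the other way in replicate 2, and KIF20A (chr5:138178862-138179161, plus strand) as the largest ratio in replicate 1.
KIF11: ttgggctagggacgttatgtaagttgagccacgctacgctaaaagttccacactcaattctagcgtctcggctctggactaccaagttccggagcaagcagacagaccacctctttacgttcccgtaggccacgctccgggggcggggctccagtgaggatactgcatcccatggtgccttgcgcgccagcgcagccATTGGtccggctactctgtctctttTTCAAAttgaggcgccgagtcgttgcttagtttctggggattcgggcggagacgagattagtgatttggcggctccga
KIF4A: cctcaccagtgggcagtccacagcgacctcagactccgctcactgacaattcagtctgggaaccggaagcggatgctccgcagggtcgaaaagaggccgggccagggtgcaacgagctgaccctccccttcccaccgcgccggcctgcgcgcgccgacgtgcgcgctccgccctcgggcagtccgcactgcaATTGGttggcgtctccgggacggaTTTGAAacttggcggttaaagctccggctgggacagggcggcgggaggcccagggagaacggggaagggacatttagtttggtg
KIF14: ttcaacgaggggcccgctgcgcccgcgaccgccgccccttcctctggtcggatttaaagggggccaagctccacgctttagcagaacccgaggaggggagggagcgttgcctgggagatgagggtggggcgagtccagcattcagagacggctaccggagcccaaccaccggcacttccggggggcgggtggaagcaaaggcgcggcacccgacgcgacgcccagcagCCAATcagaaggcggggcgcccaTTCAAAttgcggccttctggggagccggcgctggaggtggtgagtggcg
KIF22: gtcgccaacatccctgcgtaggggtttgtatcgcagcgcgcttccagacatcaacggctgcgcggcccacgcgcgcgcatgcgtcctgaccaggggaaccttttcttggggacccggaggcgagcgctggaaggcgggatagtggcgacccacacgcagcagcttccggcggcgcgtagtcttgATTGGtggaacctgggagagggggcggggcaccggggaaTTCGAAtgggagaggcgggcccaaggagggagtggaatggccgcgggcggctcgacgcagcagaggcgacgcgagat
KIF20A: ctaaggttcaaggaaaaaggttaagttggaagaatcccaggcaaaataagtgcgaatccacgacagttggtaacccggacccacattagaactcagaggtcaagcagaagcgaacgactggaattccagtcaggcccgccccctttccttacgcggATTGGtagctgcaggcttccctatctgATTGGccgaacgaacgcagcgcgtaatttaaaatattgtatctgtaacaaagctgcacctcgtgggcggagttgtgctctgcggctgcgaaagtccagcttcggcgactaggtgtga
The windows of KIF11, KIF4A and KIF14 share the order CCAAT (as ATTGG on the printed strand in KIF11 and KIF4A), then the CHR (TTTGAA or its reverse complement TTCAAA). KIF22 was the 1 kinesin with the TTCGAA form, which 397 of all 27305 windows hold, 39 bases downstream of its CCAAT letters. KIF20A held CCAAT at 2 places and neither CHR spelling. KIF15 held a CHR match and no CCAAT, and KIF2C held none of the searched letters.

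**Figure D2:**
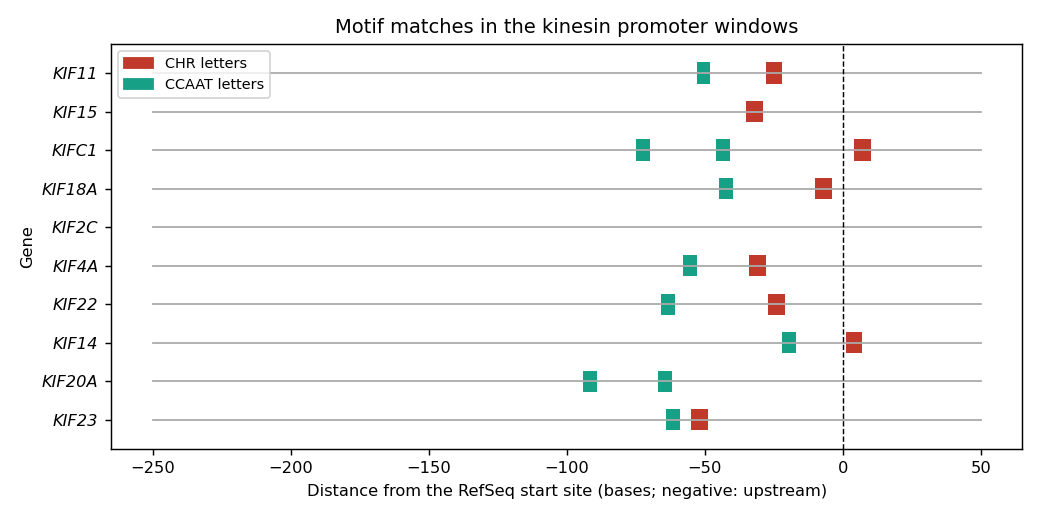
Position of CHR letters (red) and CCAAT letters (green) in the promoter windows of the 10 kinesins, in bases from the RefSeq start site (dashed line). Both elements lie in 7 genes, at most 75 bases upstream of the start site, KIF15 the CHR alone, KIF20A CCAAT alone and KIF2C neither.

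Among the motors that separate and hold the spindle poles, KIF11 slides antiparallel microtubules apart. KIF11 stood at 31.0 and 22.2 RPKM in the first and second ISL1 libraries, against 13.7 and 16.8 RPKM in the controls. Both ISL1 libraries were above both controls. The ratio of ISL1 over control was 2.26 in replicate 1 (95% counting interval 2.15 to 2.37, from 5873 and 2263 reads) and 1.32 in replicate 2 (1.26 to 1.39, from 3339 and 2941 reads). Pooled over the 2 libraries a group, the log2 fold change came to 0.75 (SE 0.40, limma adjusted p = 1.00). KIF15, which can hold a bipolar spindle when KIF11 is blocked, stood at 10.7 and 9.91 RPKM with ISL1, against 5.44 and 8.01 RPKM in the controls. Its groups did not overlap either, and its ratios were 1.96 (1.81 to 2.13) and 1.24 (1.15 to 1.34). KIFC1 walks toward the minus end, crosslinks spindle microtubules and clusters extra centrosomes in cancer cells. It stood at 29.8 and 34.6 RPKM with ISL1, against 11.8 and 31.3 RPKM in the controls. Its second control lay above its first ISL1 library, so the groups overlapped. The ratio was 2.53 in replicate 1 (2.35 to 2.71) and 1.10 in replicate 2 (1.05 to 1.16), and with median-ratio scaling the replicate 2 difference turned to -0.06 on the log2 scale. Counting intervals cover counting error only.

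Chromosome movement and alignment are the work of the next group. KIF18A, which dampens the oscillation of chromosomes at the spindle equator, stood at 17.1 and 27.6 RPKM with ISL1, against 9.88 and 9.20 RPKM in the controls. The controls were close to each other and both ISL1 libraries were above them, with a pooled log2 fold change of 1.11 (SE 0.46, limma adjusted p = 1.00). KIF18A was the 1 kinesin whose ratio was larger in replicate 2, at 2.996 (2.79 to 3.22, from 2809 and 1092 reads), than in replicate 1, at 1.73 (1.61 to 1.86, from 2196 and 1105 reads). KIF2C, a motor that does not walk but removes tubulin from microtubule ends and corrects faulty kinetochore attachments, stood at 35.8 and 49.2 RPKM with ISL1, against 15.1 and 31.4 RPKM in the controls. Its groups did not overlap, and its ratios were 2.37 (2.23 to 2.52) and 1.57 (1.496 to 1.64). KIF4A is a chromosome-bound motor that also sets the length of the central spindle with its partner PRC1. It stood at 24.1 and 23.8 RPKM with ISL1, against 12.6 and 17.2 RPKM in the controls. The ISL1 libraries were nearly alike and both above the controls, at ratios of 1.92 (1.82 to 2.03) and 1.38 (1.31 to 1.46). KIF4B, a near-identical copy of KIF4A, was listed at 0.0122 and 0.0921 RPKM with ISL1 and at 0.0001 and 0.0132 RPKM in the controls, so how shared reads were split between the copies is uncertain but few were given to KIF4B.

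KIF22 pushes chromosome arms away from the poles. It stood at 1.71 and 46.8 RPKM in the first and second ISL1 libraries, against 0.661 and 72.7 RPKM in the controls. ISL1 was thus higher in replicate 1 and lower in replicate 2, at ratios of 2.59 (1.86 to 3.66, from 146 and 49 reads) and 0.644 (0.615 to 0.674, from 2888 and 5222 reads). The pooled log2 fold change was 0.04 (SE 2.60, limma adjusted p = 1.00). With the replicate number as a block in the fit the SE was 0.41. The level of KIF22 differed between the tables by far more than between the groups, at 27.3-fold between the ISL1 libraries and 110-fold between the controls. The lengths solved for its values, each the smallest whole length that fitted, also differed. They were 2296 bases in replicate 1 and 2097 bases in replicate 2, where for the other 9 kinesins the same length fitted both.

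The motors of the central spindle and cytokinesis make up the last group. KIF20A, which brings the chromosomal passenger complex to the central spindle, stood at 30.7 and 53.2 RPKM with ISL1, against 9.61 and 30.1 RPKM in the controls. Both ISL1 libraries lay above both controls, though the first ISL1 library and the second control were within 1 RPKM. The ratio was 3.19 in replicate 1 (2.98 to 3.42, from 3952 and 1077 reads), the largest of the 10, and 1.77 in replicate 2 (1.69 to 1.84, from 5430 and 3577 reads). Its pooled log2 fold change was 1.19 (SE 0.72, limma adjusted p = 1.00). KIF23, the motor subunit of centralspindlin, stood at 1.70 and 34.8 RPKM with ISL1, against 0.955 and 20.8 RPKM in the controls. Within each replicate number ISL1 was higher, at ratios of 1.78 (1.42 to 2.25, from 234 and 114 reads) and 1.67 (1.59 to 1.75, from 3782 and 2640 reads), and KIF23 was the 1 kinesin whose 2 intervals overlapped. Its tables differed 20.4-fold between the ISL1 libraries and 21.8-fold between the controls at an unchanged length of 3697 bases. KIF14, which works with citron kinase at the midbody, stood at 7.08 and 6.44 RPKM with ISL1, against 3.13 and 4.57 RPKM in the controls. Its groups did not overlap, and its ratios were 2.27 (2.08 to 2.47) and 1.41 (1.30 to 1.52).

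**Figure D3:**
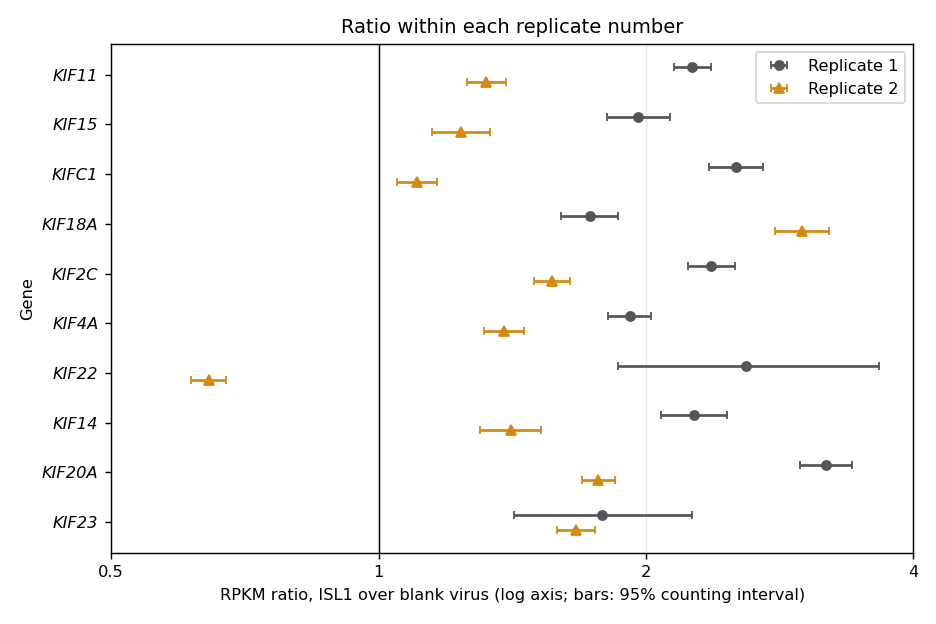
Ratio of RPKM, ISL1 over blank virus, for each kinesin within replicate 1 (grey circles) and replicate 2 (orange triangles) on a log axis, with 95% exact counting intervals. All 10 replicate 1 ratios lie above 1, 9 of 10 replicate 2 ratios do, and for KIF18A alone the replicate 2 ratio is the larger of separate intervals.

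For 8 of the 10 genes the ratio was larger in replicate 1 with intervals that did not overlap, for KIF18A it was larger in replicate 2, and for KIF23 the intervals overlapped. The summed level of the 10 kinesins was 189.6 and 308.5 RPKM in the ISL1 libraries, against 82.9 and 242.1 RPKM in the controls, ratios of 2.29 and 1.27. The smaller second ratio of the sum includes KIF22, the most abundant kinesin of the second control. The order of levels differed between the replicate numbers. In replicate 1 KIF2C was the most abundant of the 10 in the ISL1 library and in the control, at 35.8 and 15.1 RPKM, and KIF22 and KIF23 were the 2 lowest in both. In replicate 2 KIF20A led with ISL1, at 53.2 RPKM, and KIF22 led in the control, at 72.7 RPKM, with KIF15 and KIF14 the 2 lowest in both. KIF22 was thus last of 10 in the first control and first of 10 in the second. A mean over the 2 libraries of a group joins these orders, as with KIF22 at 24.3 ± 31.9 RPKM with ISL1 and 36.7 ± 50.9 RPKM in the controls (SD, n = 2 each), so most neighbours did not differ beyond their spread. Of the 9 neighbouring pairs by such means, the gap exceeded the larger SD for 1 with ISL1 (KIF15 over KIF14) and for 2 in the controls (KIF18A over KIF15 and KIF15 over KIF14).

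Among the 6 further mitotic kinesins, 4 were tested. CENPE, the kinetochore motor that carries chromosomes to the equator, stood at 9.12 and 11.3 RPKM with ISL1, against 4.63 and 6.30 RPKM in the controls, and KIF20B, a cytokinesis motor, at 11.6 and 8.94 RPKM, against 6.02 and 6.58 RPKM. Both ISL1 libraries were above both controls for these 2 genes (5.52% of all tested genes). KIF18B, a relative of KIF18A at microtubule plus ends, went the same ways as KIF22, with 2.58 and 14.9 RPKM in the ISL1 libraries, against 0.834 and 19.5 RPKM in the controls. KIF2A, a depolymerising relative of KIF2C that also acts outside mitosis, stood at 0.291 and 27.9 RPKM with ISL1, against 0.400 and 23.4 RPKM in the controls. As for KIF22, the smallest whole lengths of KIF18B and KIF2A differed between the replicate numbers. They were 1077 and 2669 bases for KIF18B and 4261 and 1630 bases for KIF2A in replicates 1 and 2. KIF4B did not pass the filter, and KIF2B was in none of the tables.

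The list of cargo transport and ciliary kinesins also holds kinesin light chains and the kinesin-associated protein KIFAP3, which are not motors. Of its 23 genes tested, 4 stood higher with ISL1 in both replicate numbers (23.1% of all tested genes), among them KLC3 and KIFAP3. Lower in both were 5 (19.1%), and the median differences were -0.10 and 0.31. The difference between these genes and the mitotic kinesins was not tested. None had both ISL1 libraries above both controls (5.52% of all tested genes). KIF5C, a transport motor of neurons, differed by -1.71 in replicate 1 and 0.74 in replicate 2. KIF13B, another cargo motor, stood at 8.18 and 7.21 RPKM with ISL1, against 10.1 and 14.7 RPKM in the controls, and KIF3B, a subunit of the ciliary transport motor, at 31.9 and 31.5 RPKM, against 41.4 and 34.97 RPKM. These 2 were lower with ISL1 in both replicate numbers. The others taken by the rule were KLC3, a kinesin light chain, at 0.18 and 0.45 on the log2 scale, KIF12 at 0.43 and -0.10, and KIF13A at -0.17 and -0.63.

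Binding partners and regulators of the mitotic kinesins stood higher with ISL1 in replicate 1 for all 30 tested (49.4% of all tested genes). In replicate 2, 21 of 30 did (54.6%). Their medians were 0.53 and 0.33. None of the 30 passed limma. TPX2, which targets KIF15 and KIF11 to the spindle, stood at 120.1 and 138.9 RPKM with ISL1, against 50.7 and 80.5 RPKM in the controls. PLK1, the mitotic kinase that phosphorylates KIF20A and KIF23, stood at 49.4 and 76.0 RPKM, against 24.4 and 38.1 RPKM. Both ISL1 libraries of PLK1 and of TPX2 lay above both controls, which held for 7 of the 30 partners (5.52% of all tested genes). PLK1 and TPX2 were among the 6 partners taken by smallest p, which favours such separation. In replicate 2, 9 of the 30 stood lower, KPNB1 the most at -0.68 on the log2 scale. For AURKB, the kinase of the passenger complex that KIF20A carries, ISL1 minus control came to 0.89 and 0.92 on the log2 scale in replicates 1 and 2, which is the form of the paired values below. PRC1, the partner of KIF4A, differed by 0.31 and 0.46. RACGAP1, the partner of KIF23 in centralspindlin, differed by 0.09 and 0.15, and CIT, the kinase that works with KIF14, by 0.14 and 0.15. The replicate 2 values of these 2 turned negative (-0.05 and -0.03) with median-ratio scaling. Under that scaling 17 of the 30 partners stood higher in replicate 2 (4510 of all 11085 tested genes). RACGAP1 and CIT were below 1 RPKM in both replicate 1 libraries. AURKB, PRC1, RACGAP1 and CIT were named after their values were seen. KPNA2 and BUB1B differed by 1.08 and 0.21 and by 1.06 and 0.49, ANLN by 1.06 and 0.47, and CCNB1 by 1.48 and 0.78. CDK1, the kinase of mitotic entry, differed by 0.98 and -0.11.

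Of 15 kinetochore and checkpoint genes tested, on which KIF2C, KIF18A and CENPE act, 11 stood higher in both replicate numbers (23.1% of tested genes). Their medians were 0.83 and 0.48. CDC20 differed by 0.83 and 1.42, BUB1 by 1.12 and 0.81, NDC80, a microtubule-binding subunit, by 0.52 and 0.67, and PTTG1, the securin, by 1.14 and 0.95. MAD2L1, a checkpoint protein, differed by 1.27 and 0.19 (-0.01 in replicate 2 with median-ratio scaling) and CENPF by 1.36 and 0.21. These 6 genes were taken by smallest p, which favours genes that went the same way in both. Of the 15, 3 stood lower in replicate 2, SPC24 the most at -0.86, and 1 stood lower in replicate 1. With median-ratio scaling 10 of the 15 stood higher in both (2375 of all 11085 tested genes). In the reference genes of proliferation, TOP2A differed by 1.35 and 0.17 (-0.03 in replicate 2 with median-ratio scaling), CCNA2 by 1.27 and 0.32, CCNB2 by 0.91 and 0.86, UBE2C by 1.18 and 0.69 and MKI67 by 0.24 and -0.46. In replicate 1 MKI67 stood at only 0.863 RPKM with ISL1 and 0.577 RPKM in the control, where the log2(RPKM + 1) scale understates a difference. UBE2C stood at 3.40 and 338.0 RPKM with ISL1, against 0.935 and 209.7 RPKM in the controls.

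Genes of G1/S and replication parted from the kinesins in replicate 2. All 21 stood higher with ISL1 in replicate 1 (median 0.71), where 49.4% of all tested genes did. In replicate 2, 17 of 21 stood lower (median -1.01), as did 5030 of all 11085 tested genes, while 9 of 10 kinesins stood higher. MCM4, a subunit of the replicative helicase, stood at 0.574 and 11.9 RPKM in the ISL1 libraries, against 0.201 and 43.5 RPKM in the controls, and GINS1 at 28.0 and 10.9 RPKM, against 9.58 and 18.4 RPKM. The 4 that stood higher in both (23.1% of all tested genes) were SLBP (0.57 and 0.76), CCNE1 (0.66 and 0.35), CCNE2 (0.65 and 0.29) and RFC4 (0.71 and 0.36). The difference between these lists was not tested.

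The factors known to act at the CHR and CCAAT elements had no common direction. Of 18 tested, 2 stood higher in both replicate numbers (23.1% of all tested genes) and 3 lower in both (19.1%). Their medians were 0.16 and -0.10. MYBL2, the B-MYB partner of MuvB, differed by 1.19 and -0.06, and FOXM1, named after its values were seen and read at 0.220 and 31.0 RPKM with ISL1 against 0.0676 and 33.8 RPKM in the controls, by 0.19 and -0.12. The MuvB subunits LIN37 and LIN52 differed by -0.37 and 1.18 and by -0.13 and -0.08 (0.05 in replicate 1 with median-ratio scaling for LIN52), and NFYB, an NF-Y subunit, by 0.27 and 0.76. CDKN1A, the p21 inhibitor through which p53 represses CHR genes, stood at 0.236 and 20.2 RPKM with ISL1, against 1.10 and 39.8 RPKM in the controls, lower in both replicate numbers. RBL2, a pocket protein of the repressor complex, differed by -0.32 and -0.00153.

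**Figure D4:**
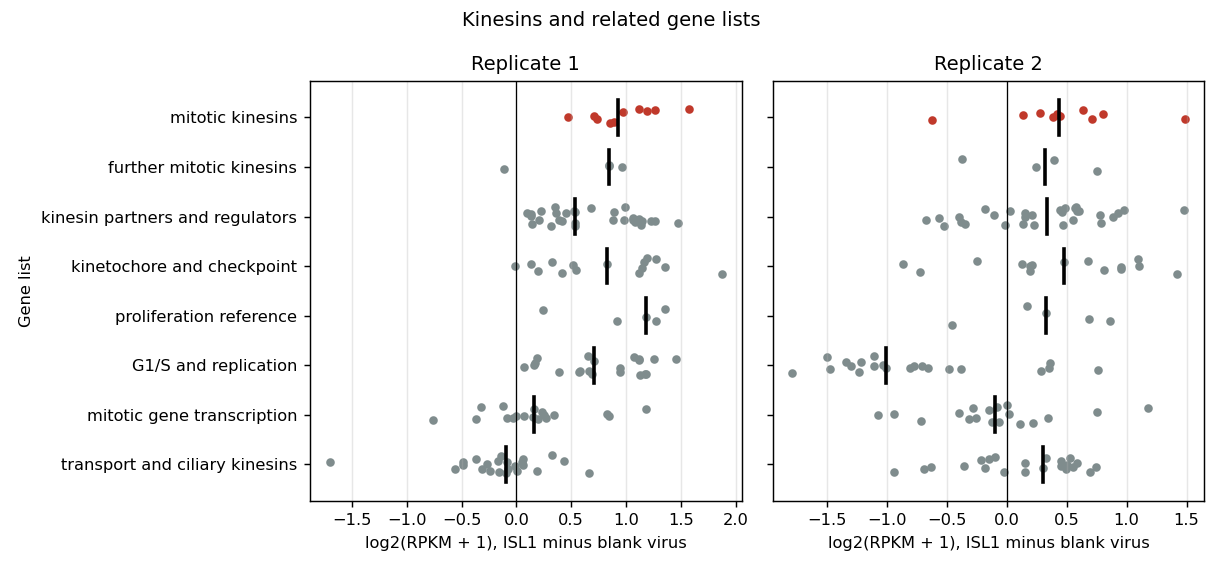
Differences of log2(RPKM + 1), ISL1 minus blank virus, for the tested genes of each list within replicate 1 (left) and replicate 2 (right), each point a gene and each bar the median. The kinesin medians are 0.93 and 0.43, while the G1/S and replication list has medians of 0.71 and -1.01.

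By distance of the replicate 1 and replicate 2 differences from the kinesin median, over 4 libraries, the nearest other genes were CLEC2L, KRBOX1, PBK, SF3B5, DNAJA1 and CRELD2, at distances of 0.00281 to 0.0920 on the log2 scale. PBK stood at 27.6 and 28.5 RPKM with ISL1, against 13.8 and 20.2 RPKM in the controls, and DNAJA1 at 195.2 and 120.8 RPKM, against 99.7 and 85.9 RPKM. With 2 differences per gene this measure only places genes in the plane of the plot of both replicate numbers.

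**Figure D5:**
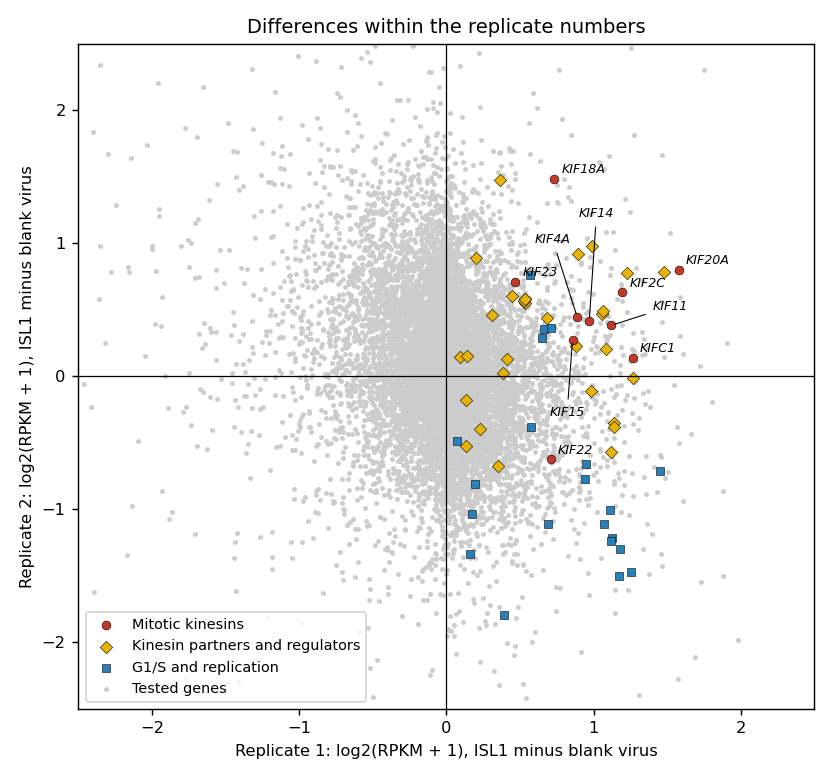
Difference of log2(RPKM + 1), ISL1 minus blank virus, in replicate 1 (x axis) against replicate 2 (y axis), with kinesins in red and labelled, their partners in yellow, G1/S and replication genes in blue and all tested genes in grey (49 lie outside the plotted range). Of the kinesins, 9 lie in the upper right and KIF22 in the lower right, where 17 of 21 G1/S and replication genes also lie.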

How the data were processed

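The authors deposited 1 table of RPKM values per library, per the file headers, without read counts. Per the submitters' processing notes, reads were handled with CASAVA 1.4 and BWA, and hg19 is the build; annotation, counter and use of strand: not given in the sources used here. Replicate 1 files listed 16640 genes and replicate 2 files listed 17197. Reads within genes that overlap kinesins (TMEM42, METTL15, BRD8, CDC23 and PDZD11 are protein-coding) may therefore be shared.

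Genes common to the 4 tables that reached 1 RPKM in 2 or more libraries were fitted with limma 3.58.1 (R 4.3.3; trend) on log2(RPKM + 1), adjusted by Benjamini-Hochberg over all, threshold 0.05. Fold changes on that scale understate low genes. Depths of 37134267 and 29429964 reads (ISL1) and 32289510 and 34274524 reads (controls) were solved from low values. The commonest ISL1 to control ratio gave the ratio of depths, and 76.1% and 66.6% of genes below 5 RPKM then fell on whole-number ratios. The depth itself was the largest candidate that gave whole transcript lengths, for 67.3% and 42.7% of the genes sampled in replicates 1 and 2. Read counts and their intervals rest on these depths. A count of 0 allows up to 0.102 RPKM in 1 kb (3 reads). Kinesin reads follow from the length common to both replicate numbers (KIF22: the smallest whole length), with exact 95% binomial intervals of the ratio.

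The rule names all kinesins, the further mitotic kinesins, up to 6 genes per list by smallest p, and the 6 nearest genes. The members and lists were chosen with earlier results of these data known. The solving of depths and the limma fit were tested on simulated data. The simulation for limma gave all genes the same spread and no difference between the replicate numbers, unlike these data. Other software was SciPy 1.17.1, pandas 2.3.3, NumPy 2.4.6 and Python 3.11.15, with matplotlib 3.10.9 for figures.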

Additional observations from a re-analysis of the deposited data

How the results depend on the processing

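With quantile normalization 1 gene passed limma as higher, ISL1 itself; every other alternative gave 0 in both directions, with 0 to 34 genes at an unadjusted p under 0.05 apart from the replicate block. The median pooled log2 fold change of the kinesins (0.70) ran from 0.41 to 1.22 when 1 library was left out (0.41 without the first control and 1.22 without the second, each leaving 1 control against 2 ISL1 libraries), and 8 to 10 kinesins kept a positive value, against 10 with all libraries. KIF22 reversed to -0.032 with quantile normalization, and ran from -2.69 to 2.78 with 1 library left out, KIF23 from -1.27 to 2.45; each such fit sets unequal numbers of replicate 1 and replicate 2 tables against each other. With median-ratio scaling the replicate 2 difference of KIFC1 reversed to -0.0592, as that scaling moved the median of all genes there from 0.0578 to -0.115. This left 8 kinesins higher in both replicate numbers (2375 of all 11085 tested genes). With the replicate block limma called 0 of 11085 genes, with 260 at an unadjusted p under 0.05, among them 3 kinesins (KIF20A at 0.0098, KIF18A at 0.0146 and KIF2C at 0.0299, adjusted p = 1.00 each); same-numbered libraries deviated together (Pearson's r 0.882 across genes), but nothing in the labels says that the numbers pair the cultures. Without a pseudocount, an alternative chosen after seeing the data, the replicate 1 differences of KIF22 and KIF23 were 1.37 rather than 0.71 and 0.84 rather than 0.47, which put all 10 kinesins at least 1.5-fold higher there. KIF22 and KIF23 rest on the fewest reads of the 10, at 49 to 234 in replicate 1, where both were listed at low levels.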
